A study of Homo sapiens with 4 samples.

Results

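The 10 genes described here are the E2F transcription factor genes E2F1 to E2F8 and the pocket protein genes RB1 and RBL1, out of 58735 genes counted in each library. They were chosen by symbol and matched by Ensembl gene identifier in GENCODE 29, and each symbol matched 1 identifier. A549 is a human lung adenocarcinoma line, which the labels call alveolar basal epithelial. Cells labelled WT received lentivirus with a control hairpin (shControl), and cells labelled RALY knockdown received one directed at RALY (shRALY), a gene for an hnRNP-type RNA-binding protein. Both groups were lentivirus infected and sampled at day 2, with 2 libraries in each of the 2 groups. The labels do not state whether the libraries of a group came from separate cultures, so each p-value reflects spread among libraries only, and that spread may be technical.

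E2F proteins bind DNA at the promoters of genes needed for S phase, most of them as dimers with a DP protein. E2F1, E2F2 and E2F3 are classed as activators, E2F4 and E2F5 as canonical repressors that act with pocket proteins, E2F6 as a repressor that works with Polycomb proteins, and E2F7 and E2F8 as atypical repressors that bind DNA without DP. The pocket proteins RB1, RBL1 (p107) and RBL2 (p130) bind the activator and canonical repressor E2F proteins until cyclin-dependent kinases phosphorylate the pocket proteins. Several E2F and pocket protein genes are themselves E2F targets, so the family forms feedback loops in dividing cells.

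Library totals were 16745818 to 18632787 counts per library. In shControl RALY stood at 123 and 133 CPM (read count scaled to a common library size by the trimmed mean of M-values, TMM), against 40.9 and 41.5 CPM in shRALY. It was 3.12-fold lower by the quasi-likelihood test of edgeR, with a p of 5.85e-11 after Benjamini-Hochberg adjustment over all tested genes, as for every adjusted p that follows. Of the markers of the labelled cell type, the epithelial keratin genes KRT8 and KRT18 had at least 26079 counts in every library, although each shares over 20% of its sequence words with other genes. Neither passed the test, while KRT19 was 3.27-fold higher and CDH1, the E-cadherin gene, 1.38-fold higher in shRALY (edgeR adjusted p = 1.35e-11 and 0.019). EPCAM had 39 to 65 counts and did not pass. The basal keratin genes KRT5 and KRT14 had at most 1 and 6 counts, and the alveolar genes SFTPC and NKX2-1 at most 2 and 1. The third basal marker, TP63, had 60 and 56 counts in shControl and 25 and 26 in shRALY, 2.25-fold lower (edgeR adjusted p = 0.00726). The alveolar marker AGER had 22 to 45 counts and did not pass (log2 0.72, edgeR adjusted p = 0.125). The immune markers PTPRC and CD3E had at most 5 and 0 counts, and 5 immune markers summed to 5.14 to 8.32 CPM, mostly CD14. The 4 fibroblast markers summed to at least 19.5 CPM in each shControl library and to 14.5 and 17.0 CPM in shRALY. Whether these marker differences bear on any value here was not tested.

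Promoter sequence is shown for the members that fell with E2F1 and, for contrast, for E2F3 and E2F4. RefSeq windows of 300 bases (250 before and 50 after a transcript start, GRCh38.p14) were searched on both strands for the E2F consensus in its forms TTTCCCGC, TTTCGCGC, TTTGCCGC and TTTGGCGC. Of 35116 such windows, 3.31% held a match. The 120 bases before the start follow, 5′ to 3′ on the strand of the gene, with each E2F match in capitals.
E2F1, chr20:33686386-33686505, minus strand: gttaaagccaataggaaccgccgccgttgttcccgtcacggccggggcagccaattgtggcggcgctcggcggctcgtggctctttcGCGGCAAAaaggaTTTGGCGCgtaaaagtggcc
E2F2, chr1:23531234-23531353, minus strand: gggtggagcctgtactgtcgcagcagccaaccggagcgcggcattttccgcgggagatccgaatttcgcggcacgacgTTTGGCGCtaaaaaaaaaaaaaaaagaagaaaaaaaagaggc
E2F3, chr6:20401759-20401878, plus strand: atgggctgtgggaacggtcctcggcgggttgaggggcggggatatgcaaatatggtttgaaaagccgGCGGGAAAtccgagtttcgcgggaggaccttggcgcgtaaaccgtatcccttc
RBL1, chr20:37095998-37096117, minus strand: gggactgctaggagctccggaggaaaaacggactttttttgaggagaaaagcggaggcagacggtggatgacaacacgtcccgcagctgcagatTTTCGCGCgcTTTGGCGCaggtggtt
E2F7, chr12:77065570-77065689, minus strand: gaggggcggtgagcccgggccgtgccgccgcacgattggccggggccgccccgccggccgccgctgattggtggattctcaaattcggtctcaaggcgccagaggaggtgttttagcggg
E2F4, chr16:67192035-67192154, plus strand: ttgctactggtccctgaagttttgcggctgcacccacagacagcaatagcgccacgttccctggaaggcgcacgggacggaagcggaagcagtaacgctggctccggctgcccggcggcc

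Among the members, E2F1 and RBL1 each held 2 E2F matches and E2F2 and E2F3 1 each. In E2F1 they began 33 and 20 bases before the start, in RBL1 26 and 16 bases, in E2F2 42 bases and in E2F3 53 bases, so all of them lay close to the start. No E2F match was present in the windows of E2F4, E2F6 and E2F7, or in a second E2F3 window around the start at position 20403614 of chromosome 6. The CHR element, which DREAM and MuvB complexes bind in cell cycle promoters, was searched as TTTGAA and as TTCGAA and matched in E2F3 alone among these members, against 16.4% of all windows. The CCAAT box matched 3 times in E2F1, 4 times in E2F3 and 4 times in E2F7, against at least 1 match in 34.6% of all windows. The GC box GGGCGG matched 6 times in E2F1, with at least 1 match in 45.0% of all windows, and E2F2 and RBL1 held neither box. The window listed for RB1 starts 172724 bases downstream of the GENCODE gene start and was not used, and E2F5 and E2F8 had no window. All windows include those of genes that were not tested. Of 10706 tested protein-coding genes with a window, 698 held an E2F match and 1673 a CHR match. A CCAAT box was held by 4578 of them and a GC box by 8211. A match is a description of the sequence and does not show binding.

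Of the 10 members, all passed the filter on low counts, 6 were lower and 2 higher in shRALY, and 2 did not pass the test. The background was high: 41% of the 15912 tested genes were called, 20.4% lower and 20.6% higher, so a count of 8 called members must be read against that share. The members' median log2 fold change was -0.44, against -0.01 over all tested genes, and the median absolute change was 0.58 against 0.38. The members' changes did not divide between activators and repressors, since both classes held genes that fell more than 5-fold and genes that rose or did not pass. The libraries of the 2 groups did not overlap for 9 of the members, E2F6 being the exception. These 9 include E2F4, which did not pass the test (edgeR adjusted p = 0.392). With 2 libraries in each group such separation can easily arise by chance. The share of all tested genes that separate in this way is not given here, so the count of 9 has no background to be read against. In bulk RNA, fewer cells expressing a gene and less of its RNA per cell cannot be told apart.

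**Figure D1:**
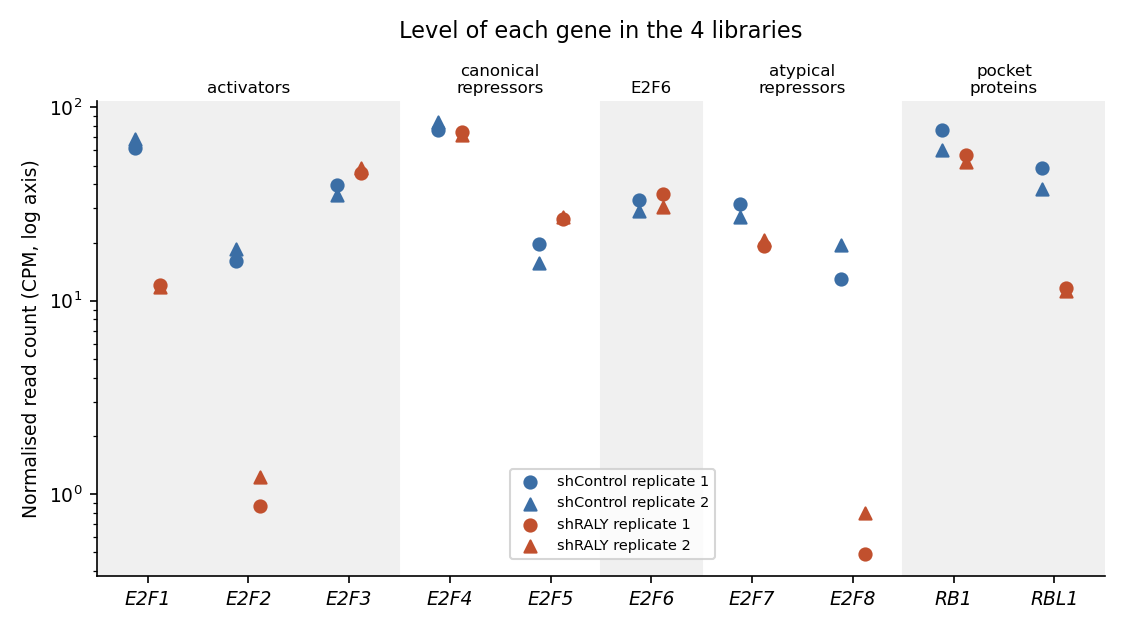
Normalised read count (CPM, log axis) of each member in each library, in blue for shControl and orange for shRALY, with circles for replicate 1 and triangles for replicate 2. E2F2 and E2F8 lie between 0.490 and 1.22 CPM in the shRALY libraries, while E2F4 lies between 71.8 and 83.7 CPM in all 4.

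Among the activators, E2F1 and E2F2 fell and E2F3 rose slightly, a call that 5 alternatives did not keep. E2F1 (ENSG00000101412, chromosome 20, 33675683 to 33686404, minus strand), the best-known activator of S-phase genes, was at 61.3 and 68.6 CPM in shControl and 12.1 and 11.8 CPM in shRALY. Both shRALY libraries lay far below both controls, a 5.42-fold fall with a 95% interval of 4.46 to 6.58 (edgeR adjusted p = 1.07e-12). E2F2 (chromosome 1, 23506430 to 23531220, minus strand) was at 16.1 and 18.6 CPM in shControl and 0.870 and 1.22 CPM in shRALY. These shRALY values rest on 16 and 20 counts, and the fall was 16.6-fold with an interval of 11.5 to 23.9 (edgeR adjusted p = 1.00e-11). Only 12 tested genes had a lower log2 fold change than E2F2.

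E2F3 (chromosome 6, 20401906 to 20493715, plus strand), an activator with a pair of promoters whose transcripts are summed here, was at 39.7 and 35.2 CPM in shControl and 45.8 and 48.7 CPM in shRALY. Both shRALY libraries lay above both controls, and E2F3 was 1.26-fold higher (log2 0.33 ± 0.12, SE; edgeR adjusted p = 0.034). Its call did not survive leaving out shControl replicate 2 (adjusted p = 0.055), shRALY replicate 1 (0.16) or shRALY replicate 2 (0.304), nor a change to library size alone (0.075) or to DESeq2 (0.0544). The 95% intervals of the log2 fold change of E2F3, 0.08 to 0.59, and of E2F1, -2.72 to -2.16, lie on opposite sides of 0.

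Of the canonical repressors, E2F4 showed no change past the test and E2F5 rose. E2F4 (chromosome 16, 67192169 to 67198918, plus strand), the most abundant repressor E2F here per length of exon, was at 76.3 and 83.7 CPM in shControl and 74.6 and 71.8 CPM in shRALY. Its log2 fold change was -0.13 with an interval of -0.36 to 0.10 (edgeR adjusted p = 0.392), so a fall of 1.5-fold would lie outside the interval. E2F5 (chromosome 8, 85177225 to 85217158, plus strand) was at 19.7 and 15.6 CPM in shControl and 26.6 and 27.0 CPM in shRALY. Both shRALY libraries were above both controls, 1.52-fold higher (log2 0.60 ± 0.15, SE; edgeR adjusted p = 0.00267). Of its exonic bases, 18.6% overlap C8orf59 on the other strand, and the strand setting of the counting is not given in the sources used here.

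E2F6 (chromosome 2, 11444375 to 11466177, minus strand), the Polycomb-linked repressor, was at 33.0 and 29.2 CPM in shControl and 35.5 and 30.4 CPM in shRALY, and the groups overlapped. Its log2 fold change was 0.08 (interval -0.20 to 0.36; edgeR adjusted p = 0.667). Its longest transcript shares 12.3% of its sequence words with other genes, chiefly the pseudogene E2F6P1.

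The atypical repressors both fell, by very different amounts. E2F7 (chromosome 12, 77021247 to 77065580, minus strand) was at 31.6 and 27.2 CPM in shControl and 19.2 and 20.7 CPM in shRALY. It was 1.47-fold lower (log2 -0.56 ± 0.14, SE; edgeR adjusted p = 0.00319), and the call was lost without shRALY replicate 1 (adjusted p = 0.0925). E2F8 (chromosome 11, 19224063 to 19241620, minus strand) was at 12.9 and 19.4 CPM in shControl and 0.490 and 0.795 CPM in shRALY, from 9 and 13 counts. It was 25.2-fold lower (interval 16.2 to 39.3; edgeR adjusted p = 2.53e-11), and only 6 tested genes had a lower log2 fold change. The intervals of the log2 fold change, -0.86 to -0.26 for E2F7 and -5.30 to -4.02 for E2F8, do not overlap. The 2 shControl libraries stood apart for E2F8, with an SD of 4.58 CPM on a mean of 16.2 CPM, though both lay far above both shRALY libraries.

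**Figure D2:**
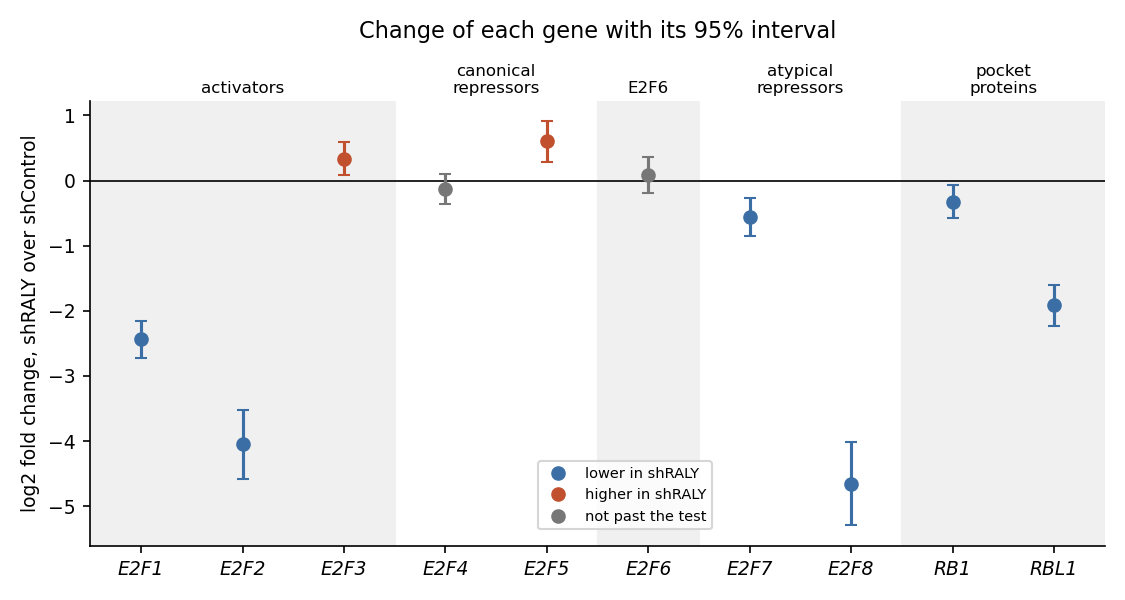
Log2 fold change of each member, shRALY over shControl, with its 95% interval from the edgeR fit, coloured by the call. E2F1, E2F2, E2F8 and RBL1 fell by 1.92 or more on the log2 scale, and the other members lie between -0.56 and 0.60.

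Of the pocket proteins, RBL1 fell strongly and RB1 slightly. RBL1 (chromosome 20, 36996349 to 37095995, minus strand) encodes p107, the pocket protein that dividing cells make under E2F control. It was at 48.5 and 38.0 CPM in shControl and 11.7 and 11.2 CPM in shRALY, 3.78-fold lower (interval 3.03 to 4.71; edgeR adjusted p = 6.71e-10). RB1 (chromosome 13, 48303726 to 48599436, plus strand), the retinoblastoma tumour suppressor, was at 76.2 and 60.2 CPM in shControl and 56.7 and 52.3 CPM in shRALY. Both shRALY libraries lay below both controls, and the second control was the nearer to them. The log2 fold change was -0.32 ± 0.12 (SE; edgeR adjusted p = 0.043). The call disappeared without shControl replicate 1 (adjusted p = 0.265), shRALY replicate 1 (0.172) or shRALY replicate 2 (0.392), with RLE size factors (0.0513) and with DESeq2 (0.0898). RBL2, the third pocket protein and not a member here, was at 48.3 and 48.2 CPM in shControl and 45.0 and 48.6 CPM in shRALY, with a log2 fold change of -0.05 (interval -0.29 to 0.20; edgeR adjusted p = 0.796).

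Levels can be compared between genes only per length, here as CPM per kb of the union of annotated exons. In shControl the order was E2F1 (25.9 ± 2.05 CPM per kb, SD, n = 2), E2F4 (22.3 ± 1.46), RB1 (10.6 ± 1.75), E2F6 (7.65 ± 0.65), RBL1 (7.26 ± 1.24), E2F3 (7.25 ± 0.61), E2F7 (4.66 ± 0.49), E2F8 (3.91 ± 1.11), E2F2 (3.18 ± 0.33) and E2F5 (2.97 ± 0.48). The library ranges of E2F6 and RBL1, of RBL1 and E2F3, and of each neighbouring pair from E2F7 down to E2F5 overlapped. In shRALY E2F4 led at 20.4 ± 0.54 CPM per kb, followed by E2F3 (9.14 ± 0.40), RB1 (8.45 ± 0.49) and E2F6 (8.10 ± 0.88). The ranges of RB1 and E2F6 overlapped there, as did those of E2F2 (0.192 ± 0.046) and E2F8 (0.155 ± 0.052) at the bottom. E2F1 thus went from rank 1 to rank 5, at 4.78 ± 0.09 CPM per kb. With the longest transcript as the length, E2F4 at 30.6 CPM per kb stood above E2F1 in shControl, and in shRALY RB1 (11.4) stood above E2F3 (9.94) and E2F5 (5.31) above E2F1 (4.78). On that length E2F1 went from rank 2 to rank 6, so these parts of the order depend on the length used.

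The summed level of the activators went from 35.1 and 37.6 CPM per kb in shControl to 13.9 and 14.4 in shRALY. That of the canonical repressors was 24.6 and 26.0 in shControl and 25.3 and 24.6 in shRALY, and the groups overlapped. The ratio of activators to canonical repressors was 1.43 and 1.45 in shControl and 0.548 and 0.583 in shRALY, 2.54-fold lower on average. The atypical repressors E2F7 and E2F8 went from 8.13 and 9.01 CPM per kb to 3.16 and 3.48. The ratio of activators to atypical repressors was 4.32 and 4.18 in shControl and 4.39 and 4.13 in shRALY. The groups overlapped on this length, but not with the longest transcript as the length. These ratios are descriptions without a test, since the members were chosen with results of these libraries known.

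**Figure D3:**
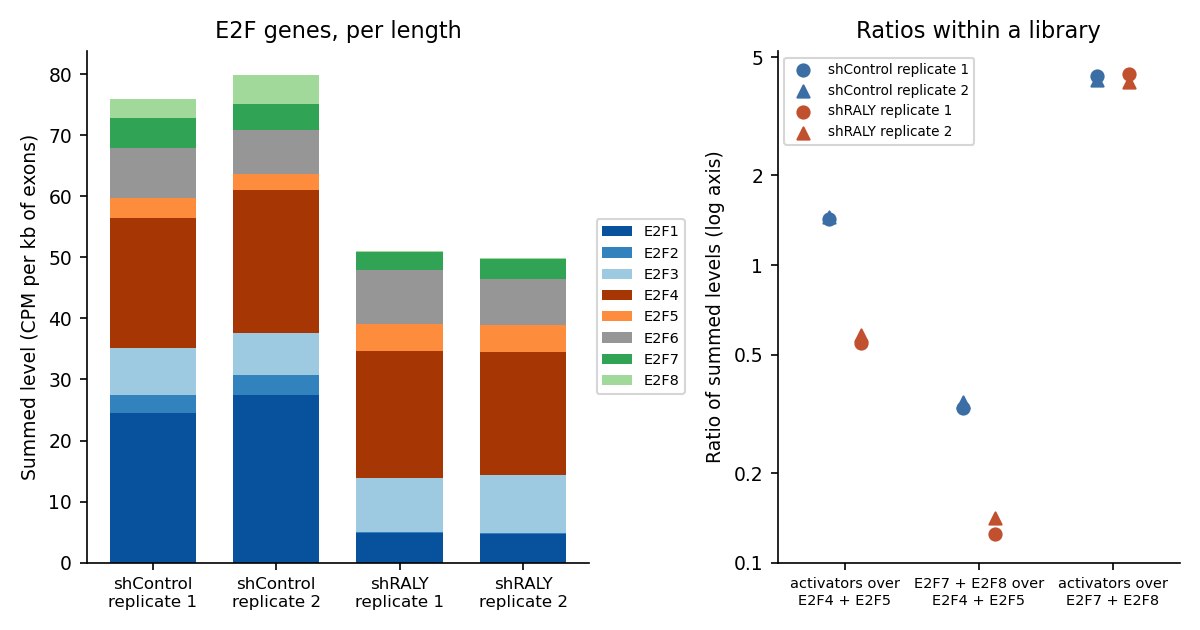
Left, the 8 E2F genes stacked in each library as CPM per kb of exons; right, ratios of summed levels within each library (log axis), blue for shControl and orange for shRALY. The stacks reach 76.0 and 79.8 in shControl and 51.0 and 49.9 in shRALY. On this length the ratio of activators to E2F7 and E2F8 lies at 4.13 to 4.39 over the 4 libraries.

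Within the E2F mRNA pool, E2F1 supplied 32.2% and 34.3% of the summed level per length in shControl and 9.5% and 9.4% in shRALY. E2F4 went from 28.0% and 29.3% to 40.8% and 40.2%, and E2F3 from 10.1% and 8.55% to 17.4% and 18.9%. The mean level of E2F4 itself went from 22.3 to 20.4 CPM per kb, while that of the summed pool went from 77.9 to 50.5. These shares use the union of exons as the length. With the longest transcript instead, E2F4 led the pool in shControl, at 30.6 CPM per kb against 25.9 for E2F1. The share of E2F7 did not separate the groups, at 6.59% and 5.40% in shControl and 5.95% and 6.59% in shRALY. Among the activators, the ratio of E2F1 to E2F3 went from 3.19 and 4.02 to 0.547 and 0.50, so the leading activator by mRNA level was E2F1 in both shControl libraries and E2F3 in both shRALY libraries. The ratio of E2F8 to E2F7 went from 0.625 and 1.09 to 0.0389 and 0.0584. Among the pocket proteins, the ratio of RBL1 to RB1 was 0.690 and 0.685 in shControl and 0.223 and 0.232 in shRALY.

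The dimer partners of the E2F proteins were also lower. TFDP1, which encodes the main DP subunit, was at 154 and 141 CPM in shControl and 66.5 and 64.9 CPM in shRALY, 2.25-fold lower (edgeR adjusted p = 1.13e-08). TFDP2 was 1.37-fold lower (edgeR adjusted p = 0.00552; 0.116 and 0.0981 when shRALY replicate 1 or 2 was left out), and TFDP3 had no counts. Of 8 genes made up of RBL2, the MuvB core, MYBL2 and FOXM1, 4 were lower, against 20.4% of all tested genes. Of the 8, none was higher and 4 did not pass. None was higher at an unadjusted p under 0.05 or by DESeq2 either. FOXM1 and MYBL2, which join MuvB to switch on G2 and mitosis genes, were 7.38-fold and 6.55-fold lower (edgeR adjusted p = 1.78e-14 and 2.48e-14). The MuvB subunit genes LIN9 and LIN54 were 3.38-fold and 1.62-fold lower. The histone-binding subunit RBBP4 (log2 -0.21), LIN52 (-0.06) and LIN37 (-0.30) did not pass, and RBBP4 passed without shControl replicate 2 (adjusted p = 0.00481). LIN37 had about 1 CPM and has 41.8% of its exonic bases overlapped by genes of the other strand, so its level is uncertain.

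Genes that control pocket protein phosphorylation moved in both directions. Of 7 tested RB kinase and cyclin genes, 5 were lower, against 20.4% of all tested genes, none was higher and 2 did not pass. None of the 7 was higher at an unadjusted p under 0.05 or by DESeq2. CCND1, which encodes cyclin D1, was at 382 and 379 CPM in shControl and 150.3 and 151 CPM in shRALY, 2.53-fold lower (edgeR adjusted p = 3.27e-10). CDK2 was 3.09-fold and CCNE2, a cyclin E gene, 6.02-fold lower (edgeR adjusted p = 1.61e-09 and 7.76e-07). CCNE2 is uncertain, since INTS8 on the other strand covers 37.1% of its exonic bases. Another of the 5 lower genes is uncertain too, with 43.2% of its exonic bases overlapped on the other strand. CCND3 (log2 -0.20) and CCNE1 (-0.11) did not pass, and CCND3 passed without shControl replicate 1 (adjusted p = 0.000866). Among 5 tested CDK inhibitor genes, CDKN1A, which encodes p21, was 5.68-fold higher, at 219 and 263 CPM against 1366 and 1375 CPM (edgeR adjusted p = 1.78e-14). The INK4 genes CDKN2C and CDKN2D were 2.83-fold and 2.41-fold lower, CDKN2A had at most 2 counts in a library and CDKN2B none. CDKN1B (log2 0.31, edgeR adjusted p = 0.0677) did not pass, but passed without shControl replicate 1 (0.0388) or 2 (0.0477), with a 10 CPM filter (0.0488) and with the replicate number as a block (0.0323). CDKN1C did not pass at 0.326 to 0.856 CPM.

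Partners of E2F6 in the Polycomb complex PRC1.6 showed no common direction. Of 10 genes, 2 were higher, 3 lower and 5 did not pass, with a median log2 fold change of 0.17. Over all tested genes 41% were called, 20.6% higher and 20.4% lower, so these counts lie near the background. MAX was at 31.6 and 30.6 CPM in shControl and 58.4 and 61.8 CPM in shRALY, 1.93-fold higher (edgeR adjusted p = 1.00e-06). RING1, a ubiquitin ligase subunit, was 1.52-fold higher (edgeR adjusted p = 0.00168; 0.0539 without shRALY replicate 2), and the scaffold gene MGA was 1.52-fold lower (edgeR adjusted p = 0.000254). L3MBTL2, RNF2 and YAF2 did not pass, nor did RYBP (log2 0.30, edgeR adjusted p = 0.0596), which passed without shControl replicate 1 (0.00319), with a 10 CPM filter (0.0421), among protein-coding genes alone (0.0473) and with the replicate block (0.0269). Of 8 germline genes that E2F6 or PRC1.6 silences in somatic cells, 2 had enough counts to test. STAG3, a meiotic cohesin gene, was 1.95-fold lower (edgeR adjusted p = 0.000509). Of its exonic bases, 18.7% overlap other genes on the same strand and 13.6% on the other strand. Its longest transcript shares 10.5% of its sequence words with other genes. SYCP3 did not pass at 0.163 to 1.23 CPM. Neither of these 2 was higher at an unadjusted p under 0.05 or by DESeq2. The other 6 had too few counts for a call.

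Textbook E2F targets fell together. All 30 tested genes of a list of 31 S-phase targets were lower, against 20.4% of all tested genes, with log2 fold changes from -3.21 to -0.82 and a median of -2.19. TK1, thymidine kinase, was at 251 and 259 CPM in shControl and 40.0 and 37.3 CPM in shRALY, 6.59-fold lower (edgeR adjusted p = 9.60e-15). The helicase subunit gene MCM4 was 5.29-fold lower and CCNA2, cyclin A, 8.32-fold lower (edgeR adjusted p = 3.36e-14 and 3.88e-14). Some of the 30 are uncertain by shared sequence or overlap, with up to 46.6% of exonic bases overlapped on the other strand. This list overlaps earlier results on replication genes in the same libraries and is not independent evidence.

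E2F1 targets of apoptosis did not follow the S-phase targets. Of 8 genes, 4 were higher, against 20.6% of all tested genes, none was lower and 4 did not pass. None was lower at an unadjusted p under 0.05 or by DESeq2. PMAIP1 and BBC3, which encode the pro-apoptotic proteins NOXA and PUMA, were 10.8-fold and 6.21-fold higher (edgeR adjusted p = 1.25e-15 and 5.56e-13). PMAIP1 and BBC3 are also p53 targets. APAF1 (log2 -0.22), BCL2L11 (-0.28) and TP73 (-0.65) were among those that did not pass. APAF1 passed without shControl replicate 2 (adjusted p = 0.00742), and BCL2L11 without shControl replicate 1 (0.0354).

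**Figure D4:**
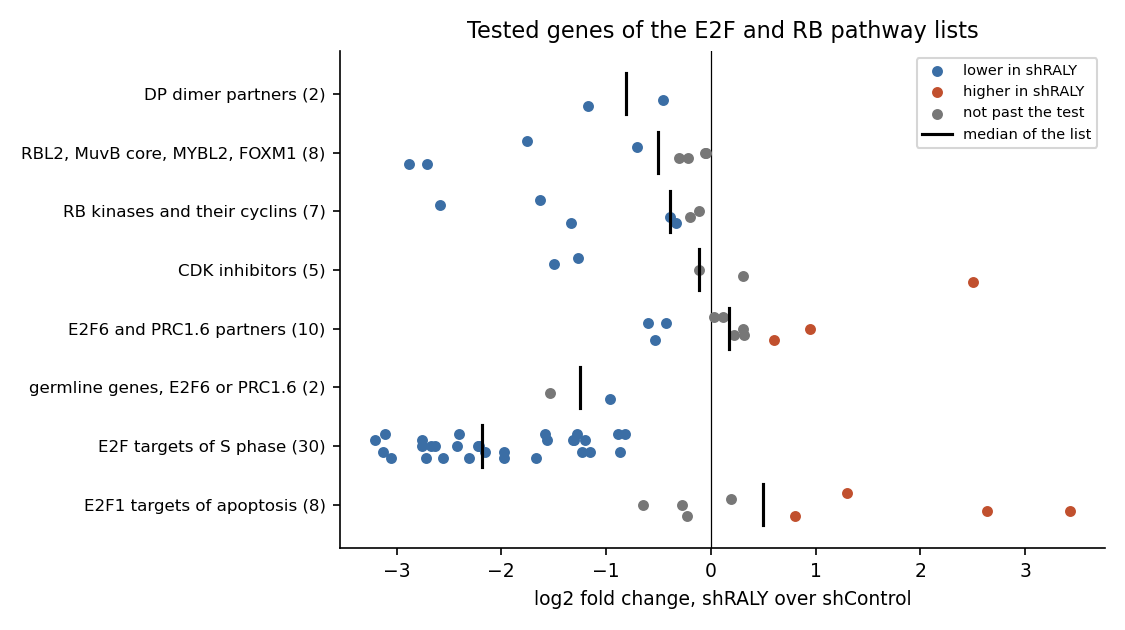
Log2 fold change, shRALY over shControl, of each tested gene in the lists of E2F and RB pathway genes, with the number tested in brackets; colours give the edgeR call and black bars the list medians. All 30 S-phase targets lie below 0, at -3.21 to -0.82, while the PRC1.6 partners lie on both sides of 0.

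The E2F consensus was also read across the genome, in a count added after the members' values were seen. Of 13161 tested protein-coding genes, 10706 (81.3%) matched a RefSeq promoter window. Of the 698 with an E2F match, 33.8% were lower and 13.2% higher, with a median log2 fold change of -0.17. Of the 10008 without one, 21.7% were lower and 23.2% higher, with a median of 0.00. The median GC content of the windows was 64.7% and 64.8%. Genes with a CHR match were lower in 28.6%, against 21.3% without, and their windows differed in median GC content, 58.8% against 66%. For the CCAAT box the shares lower were 25.1% and 20.5%, with a GC content of 62.7% and 66.5%. For the GC box they were 22.8% and 21.2%, with 67% and 57.7%. Of the S-phase targets, 27 had a window and 17 of these held an E2F match, MCM7, PCNA and CDC6 among them, against 3.31% of all windows. A CHR match was present in 6, a CCAAT box in 22 and a GC box in 24, against 16.4%, 34.6% and 45.0% of all windows. All windows include those of genes that were not tested. Of the 10706 tested genes, 698 held an E2F match and 1673 a CHR match. A CCAAT box was held by 4578 of them and a GC box by 8211. Those 10706 genes are the closer comparison for the targets. These are descriptions without a test.

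Among 11225 genes averaging 5 CPM or more, the profiles nearest to E2F1 over the 4 libraries were those of TACC3, FANCI and CHAF1A, at a root mean square distance of 0.047 to 0.056 on centred log2 CPM. Their log2 fold changes were -2.43, -2.50 and -2.39, beside -2.44 for E2F1. TACC3 encodes a spindle protein, FANCI a Fanconi repair protein and CHAF1A a histone chaperone subunit. The nearest to E2F8 were MKI67, the gene for the Ki-67 antigen of dividing cells, then E2F2 and the histone chaperone gene ASF1B, at distances of 0.184 to 0.324. The nearest to E2F4 were IER5L, ST3GAL4 and ZNF747, none of which passed the test; leaving out shControl replicate 1 brought IER5L past it (log2 -0.21; edgeR adjusted p = 0.0448). With 4 libraries in 2 groups, nearness rests mostly on the size of 1 difference.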

How the data were processed

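Gene expression was measured by RNA sequencing of poly-T selected RNA in 2 shControl and 2 shRALY libraries, grouped by their titles. Each deposited file gives the raw read counts of 1 library by Ensembl identifier. The submitters' processing notes name HISAT2 2.0.5, featureCounts 1.5.0-p3, DESeq2 1.20.0 and hg38 without their roles. The annotation, strand setting and handling of multiply mapped reads were not given in the sources used here. All 58735 identifiers matched GENCODE 29. A line separated by a space was read like the others.

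Counts were tested over all genes with edgeR 4.0.16 (R 4.3.3): filterByExpr (minimum count 10, minimum total 15), TMM, and the robust quasi-likelihood F-test with 2 residual degrees of freedom and Benjamini-Hochberg adjustment over 15912 genes, at a threshold of 0.05. The filter left out 42823 genes and kept 99.83% of counts. Standard errors were derived from the F statistic and the log2 fold change, and intervals are 95%. Both the test and the intervals use total degrees of freedom, which add to the residual ones those borrowed from the spread over all genes. The test was also run on simulated data, with an outcome that is not reported here. The floor of 3 counts corresponds to 0.161 to 0.179 CPM; it covers counting error only. Shared sequence was measured as 50-base words of the longest transcript found in other genes and as overlapped exonic bases, and genes above 20% are called uncertain.

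All members are named, with the 3 genes of smallest adjusted p and up to 4 that did not pass in each pathway list; the other genes of a list are only counted, and a few genes are not reported here. Genes outside that rule that are named (LIN54, CDKN2A, CDKN2B, TFDP3, MCM7, PCNA, CDC6) were chosen after their values were seen. The members, lists and tests were chosen with earlier results of these data known. Alternatives were DESeq2 1.42.0, normalisation by RLE or by library size only, testing unfiltered, a 10 CPM filter, no robust estimation, the replicate block, protein-coding genes alone, each library left out, and transcript length.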

Additional observations from a re-analysis of the deposited data

How the results depend on the processing

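E2F1, E2F2, E2F5, E2F8 and RBL1 kept their call under all 12 alternatives run, with log2 fold changes of -2.52 to -2.34, -4.29 to -3.81, 0.46 to 0.77, -5.02 to -4.32 and -2.07 to -1.74. E2F4 and E2F6 never passed, at -0.20 to -0.04 and -0.03 to 0.20. E2F3 and RB1 each lost their call under 5 alternatives and E2F7 under 1, as given beside their values; the cause was not tested. The number of higher members was 1 with DESeq2 and with library size alone, against 2. Without a library in turn, 1 to 2 members were higher and 4 to 6 lower, and over all genes 2040 to 3559 were higher and 1897 to 3499 lower. Each of these fits leaves a group with 1 library, which is assumed to vary like the other group. The low ends came from leaving out a shRALY library, where the spread is taken from the shControl pair. That pair differed more, at a chi-square per gene of 11.9 against 4.94 between the shRALY libraries. Whether this sets the low ends was not tested.

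Replicate numbers are shared between groups, but nothing in the labels says that they mark a shared culture, and the difference of replicate 1 and 2 correlated at only 0.07 between groups. With the replicate block, 3639 genes were higher and 3619 lower, and 2 members were higher and 6 lower, so no member's call changed.

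With the longest transcript as the length, the ratio of activators to canonical repressors was 1.09 in shControl and 0.448 in shRALY. That of atypical to canonical repressors was 0.285 and 0.110. The ratio of activators to atypical repressors was 3.83 in shControl. On this length it was slightly higher in both shRALY libraries than in both shControl libraries, so its overlap between groups depends on the length used. Library size alone moved the median log2 fold change of all genes from -0.012 to -0.067. Depth limits E2F2 and E2F8 most, with 9 to 20 counts in the shRALY libraries.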

Other observations

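E2F1 and RBL1 lie on chromosome 20, as does RALY, with gaps of 307 kb and 2888 kb between the genes in GENCODE 29. The tested genes nearest to E2F1 on either side were NECAB3 and PXMP4. NECAB3 did not pass the test (log2 fold change -0.17, edgeR adjusted p = 0.437), and PXMP4 was lower (-0.56, edgeR adjusted p = 0.0187). Both were taken by position after the members' values were seen, and whether position bears on any of these values was not tested.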
